A study of Mus musculus with 5 samples.

Results

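The 8 genes described here are podocyte genes of the mouse kidney: *Nphs1*, *Cd2ap* and *Magi2* of the slit diaphragm, *Podxl*, *Synpo* and *Ptpro* of the foot process, and *Wt1* and *Cdkn1c*, which act in the nucleus. They were taken as a list of gene names by function, chosen with earlier results of these data known. All 8 were found among the 17389 genes of the count matrix. The matrix holds unique molecular identifiers (UMIs, 1 per captured mRNA molecule) of 14197 single cells of adult kidney. The animals were littermates on the *FVB/Ant* background. In the knockout (KO), CRISPR/Cas9 had placed a double stop codon behind the start codon of *Fame* (listed in the matrix as *ccdc198*). There were 3 knockout libraries (KO mix, KO male and KO female) beside 2 of wild type (WT mix and WT female). A mix library, so named by the study, is taken here as both sexes, in proportions not given. The sources used here do not say how many animals a library held, so a p-value measures the spread between libraries only.

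Podocytes wrap the capillaries of the glomerulus with interlocking foot processes, and the slit diaphragm is the protein bridge that spans the gap between neighbouring processes. Nephrin, the product of *Nphs1*, reaches across the gap, and adaptors such as the products of *Cd2ap* and *Magi2* tie it to the cytoskeleton. The barrier keeps albumin in the blood, and loss of nephrin in people and mice causes massive protein loss in the urine. Albumin in the urine was one of the measures the study took in this line.

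On the GRCm38 assembly (GENCODE M21), *Nphs1* lies at chr7:30458315-30487223 on the plus strand and *Cdkn1c* at chr7:143458339-143461050 on the minus strand. *Podxl* lies at chr6:31519488-31563981 (minus) and *Ptpro* at chr6:137252319-137463233 (plus). *Wt1* lies at chr2:105126529-105173616 (plus), *Cd2ap* at chr17:42792951-42876665 (minus) and *Magi2* at chr5:19227036-20704792 (plus). *Nphs1* and *Cdkn1c* each have an annotated antisense gene within their bounds (*Nphs1os* and *Gm44732*), and neither of these is a row of the matrix.

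The RefSeq promoter table (GRCm38.p6) held a window for 4 of the 8 genes, *Nphs1*, *Ptpro*, *Cd2ap* and *Magi2*. The 250 bases before the RefSeq start are shown for *Nphs1* and *Ptpro*, whose UMIs lay mostly in podocytes. They are also shown for *Cd2ap*, which was found in nearly every cell type. The RefSeq starts differ from the GENCODE bounds given above. By those bounds the *Nphs1* window, most of the *Cd2ap* window and the second *Magi2* window lie inside the gene. Capitals mark CG dinucleotides, the sites of DNA methylation.
Nphs1 promoter, chr7:30459808-30460057, plus strand: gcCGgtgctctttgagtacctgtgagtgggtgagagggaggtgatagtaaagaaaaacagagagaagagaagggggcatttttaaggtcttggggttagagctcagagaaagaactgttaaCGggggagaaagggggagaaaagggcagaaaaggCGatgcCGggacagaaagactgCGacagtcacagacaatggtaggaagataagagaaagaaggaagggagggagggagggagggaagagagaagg
Ptpro promoter, chr6:137252049-137252298, plus strand: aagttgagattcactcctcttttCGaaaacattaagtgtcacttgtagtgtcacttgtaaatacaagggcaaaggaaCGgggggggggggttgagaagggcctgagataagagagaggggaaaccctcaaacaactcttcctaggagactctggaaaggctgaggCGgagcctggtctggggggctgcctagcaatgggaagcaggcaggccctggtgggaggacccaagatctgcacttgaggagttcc
Cd2ap promoter, chr17:42876425-42876674, minus strand: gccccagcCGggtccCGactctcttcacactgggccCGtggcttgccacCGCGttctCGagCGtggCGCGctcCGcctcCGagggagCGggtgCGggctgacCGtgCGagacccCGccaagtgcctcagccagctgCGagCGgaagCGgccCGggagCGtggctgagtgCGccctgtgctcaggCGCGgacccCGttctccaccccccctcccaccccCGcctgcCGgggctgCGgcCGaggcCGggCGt
The *Nphs1* window held 5 CG dinucleotides and the *Ptpro* window 3, beside a median of 6 over all 32851 windows of the table. The *Cd2ap* window held 31, a number that 5.19% of all windows reached. Of the 2 *Magi2* windows, the first (chr5:19226796-19227045) held 29 and the second (chr5:19907268-19907517) held 3. The letters GTGGGAG, which occur in the known binding motif of the WT1 protein, were searched on both strands. They were found in the *Ptpro* and *Cd2ap* windows and in 8.25% of all windows, so a match is a description and not a binding site.

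The 5 libraries held between 1794 and 3567 cells and between 9791091 and 15950717 UMIs. In the annotation of the cells, WT female, KO female and KO male belonged to run 2, and both mix libraries to run 3. What a run was is not said there. *Fame* mRNA was found in both genotypes, at 71.5 to 196 CPM (UMIs of a gene, with those of all genes in the summed cells scaled to 1000000) in wild type and 83.1 to 148 CPM in knockout, and a stop codon need not change its level. Of the cell barcodes, 25 were found in 2 libraries, 0 of them in podocytes. The authors annotated 64 podocytes (GL podo), 0.451% of the cells. Most came from WT mix (30) and KO mix (26), and WT female gave 5, KO male 2 and KO female 1. Run 3 thus held 56 of the 64 podocytes, in 6921 of the 14197 cells.

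The podocytes of WT female, WT mix and KO mix carried the markers of their name, while those of KO male did so in part. The 10 podocyte markers, 7 of them genes of the list, had a summed level of 20599 CPM in podocytes and 101 CPM in all other cells, and all 10 were found in each of WT female, WT mix and KO mix. The 1 podocyte of KO female had 8 of the 10, at 23910 CPM. The 2 podocytes of KO male had 5 of the 10, at 4487 CPM (13 UMIs). Their proximal tubule markers summed to 20021 CPM (58 UMIs), above their podocyte markers and below the 47927 CPM of all other cells there. Convoluted proximal tubule cells, pooled over libraries, had 18992 CPM of these markers. Parietal markers summed to 1036 CPM, which was 3 UMIs of 1 of the 7 markers. Over all podocytes, markers of mesangium and smooth muscle summed to 62.2 CPM, beside 358 CPM in all other cells. Of these 7 markers 3 were found, *Tagln* and *Ren1* with 5 UMIs each and *Pdgfrb* with 4 UMIs. *Acta2*, *Myh11*, *Itga8* and *Gata3* had 0 UMIs. Of the 7 markers of parietal epithelium 4 were found, with a sum of 124 CPM beside 157 CPM in all other cells. *Ncam1* had 17 UMIs (75.6 CPM, beside 4.07 CPM in all other cells) and *Akap12* 7 UMIs (31.1 beside 13.3 CPM). *Pax8* and *Krt8* had 2 UMIs each, and *Cldn1*, *Cdh6* and *Krt18* had 0 UMIs. Glomerular endothelial markers summed to 49.2 CPM in WT mix and 8.94 CPM in KO mix, but to 3751 CPM in WT female. There, 102 of the 103 UMIs came from 1 podocyte, which had 20188 of the 27462 podocyte UMIs of that library and a doublet score of 0.169. Over all podocytes 6 of the 7 endothelial markers were found, *Emcn* (44 UMIs) and *Kdr* (23 UMIs) the most, and *Plvap* had 0 UMIs. In the mix libraries all 7 proximal tubule markers were found, at 6526 CPM in WT mix and 6171 CPM in KO mix podocytes, below the 47745 and 39811 CPM of all other cells there. Red blood cell markers summed to 28913 CPM in WT female, with 733 of the 794 UMIs in the same large podocyte, to 0 in WT mix and to 26.8 CPM in KO mix. Immediate early and heat shock genes, which respond to handling, summed to 6182 CPM in podocytes and 3150 CPM in other cells of WT mix, and to 3846 and 2552 CPM in KO mix. In WT female the values were 4843 and 665 CPM, and the podocyte of KO female had 0 UMIs. The part of these RNAs in the results was not tested.

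*Nphs1* had the largest share of its UMIs in podocytes of the 3 slit diaphragm genes. Its level was 2950 CPM in podocytes of WT female, 934 CPM in WT mix and 1046 CPM in KO mix, the libraries with at least 5 podocytes. The mean was 1643 ± 1133 CPM (SD, n = 3 libraries). No other cell type had a mean above 1.37 CPM, and podocytes held 278 of the 310 *Nphs1* UMIs, or 89.7% (95% exact binomial interval 85.7 to 92.8%). A UMI was found in 51 of 64 podocytes (79.7%, interval 67.8 to 88.7%), at a median depth of 2262 UMIs per cell. With each cell thinned to 1000 UMIs the share was 58.6%. In red blood cells, which should lack the mRNA, 0 of 873 cells had a UMI at a median depth of 1910, which allows a share of up to 0.344%. Podocytes and the next type in the order of levels were apart, and below them the ranges over libraries of all neighbouring types overlapped.

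*Cd2ap*, the adaptor that also serves vesicle traffic in many cells, was highest in podocytes but broad. It had 655 CPM in podocytes of WT female, 885 CPM in WT mix and 993 CPM in KO mix. The next types were principal cells of the collecting duct with 331 ± 85.1 CPM (SD, n = 5), the long descending limb of juxtamedullary nephrons with 311 ± 46.5 CPM (n = 2), and intercalated and transitional cells of the collecting duct with 259 ± 87.1 CPM (n = 5). The ranges of these 3 types overlapped, and all lay below those of podocytes. Podocytes held 3.18% (2.76 to 3.64%) of the 6391 *Cd2ap* UMIs, less than the straight proximal tubule (PTs, 20.9%), the convoluted proximal tubule (PTc, 16.5%) and the loop of Henle (13.8%), which have many more cells. Without KO mix the podocyte share was 1.88%. A *Cd2ap* UMI was found in 59.8% of the principal cells and in 5.73% of the red blood cells (median depths 3006 and 1910), or in 26.9% and 2.85% after thinning to 1000 UMIs.

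*Magi2*, a scaffold protein of the slit diaphragm, stood between these patterns. It had 692 CPM in podocytes of WT female, 910 CPM in WT mix and 814 CPM in KO mix. Tubule cells had a low level: 22.4 CPM in principal cells (40 UMIs), 17.9 CPM in the PT2 cluster (55 UMIs) and 17.4 CPM in PTc (180 UMIs), all pooled over libraries. In PTc the libraries lay close together, with 13.7 CPM in WT mix, 16.8 CPM in KO mix, 17.2 CPM in KO male, 18.7 CPM in KO female and 19 CPM in WT female. Podocytes held 186 of 678 UMIs (27.4%, interval 24.1 to 31.0%) and PTc held 26.5%. A *Magi2* UMI was found in 8.72% of PTc cells at a median depth of 4781 UMIs but in 1.83% of them after thinning, beside 0.128% of thinned red blood cells and 54.0% of thinned podocytes.

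*Podxl* encodes podocalyxin, the charged glycoprotein that keeps foot processes apart and that endothelial cells make as well. Podocytes had 4989 CPM in WT female, 3331 CPM in WT mix and 3130 CPM in KO mix, and glomerular endothelial cells had 438 ± 104 CPM (SD, n = 5). The 940 endothelial cells held 53.0% of the 2121 *Podxl* UMIs and podocytes 36.5% (34.4 to 38.6%). The podocyte share differed between libraries beyond this counting interval, from 2.65% in KO male to 47.6% in KO mix, where podocytes held 350 and endothelial cells 321 of the 735 UMIs. The order of levels was podocytes, glomerular endothelium, parietal epithelium (88.6 ± 77.3 CPM, n = 3), with no overlap of ranges between any of these neighbours. The parietal epithelium had 3 UMIs in 5 cells of WT female, 9 UMIs in 19 cells of WT mix and 0 UMIs in all 20 cells of the 3 knockout libraries. The 0 in the 15 cells of KO mix allows up to 59.3 CPM, against 124 CPM (56.5 to 235) in WT mix, and no test was possible with 1 knockout library of at least 5 cells. After thinning, a *Podxl* UMI was found in 92.2% of podocytes, 37.1% of glomerular endothelial cells and 0.565% of red blood cells.

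*Synpo* (chr18:60593973-60660142, minus strand) encodes synaptopodin, which binds the actin bundles of the foot process. Its podocyte level was 1529 CPM in WT female, 1340 CPM in WT mix and 1315 CPM in KO mix, or 1395 ± 117 CPM (SD, n = 3), and the libraries lay close together. Other glomerular and vessel types had lower and overlapping levels, with 63.9 ± 17.4 CPM in the GL sc cluster, annotated as putative stem cells (n = 2), 58.5 ± 31.4 in parietal epithelium (n = 3), 54.9 ± 27.1 in vascular smooth muscle (n = 5) and 44.0 ± 6.92 in glomerular endothelium (n = 5). The ranges of these types did not overlap those of podocytes. Podocytes held 299 of 531 UMIs (56.3%, 52.0 to 60.6%) and glomerular endothelium 20.7%. Of the mesangium and smooth muscle markers, *Itga8* (1143 CPM), *Gata3* (623 CPM) and *Pdgfrb* (481 CPM) had their highest pooled level in GL sc. *Acta2*, *Myh11*, *Tagln* and *Ren1* had theirs in vascular smooth muscle.

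*Ptpro*, a receptor-type tyrosine phosphatase of the foot process membrane, had a second site outside the glomerulus. Podocytes had 1020 CPM in WT female, 799 CPM in WT mix and 751 CPM in KO mix. Myeloid cells had 57.6 CPM in WT mix, 73.3 CPM in KO male and 48.1 CPM in KO mix, and their range lay below that of podocytes and above that of the next type, fibroblasts. Myeloid cells held 32 of the 243 *Ptpro* UMIs in 340 cells, and podocytes 182 (74.9%, 69.0 to 80.2%). A UMI was found in 9.12% of myeloid cells at a median depth of 1494 UMIs, beside 0 of 873 red blood cells. In the glomerulus next to none was found outside podocytes: glomerular endothelium had 4 UMIs in 940 cells, and the parietal epithelium (44 cells) and GL sc (143 cells) had 0 UMIs, which allows up to 18.7 and 8.90 CPM.

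*Wt1*, the zinc finger transcription factor needed for podocyte identity, was shared with the parietal epithelium, the cells that line the capsule around the glomerulus. It had 291 CPM in podocytes of WT female, 479 CPM in WT mix and 581 CPM in KO mix. The parietal epithelium had 142 CPM in WT female, 275 CPM in WT mix and 79.1 CPM in KO mix, or 165 ± 99.9 CPM (SD, n = 3). GL sc had 76.2 CPM in WT mix and 68.7 CPM in KO mix. These 3 types followed each other without overlap of ranges, although the highest parietal value (275 CPM, WT mix) came near the lowest of podocytes (291 CPM, WT female). The 3 parietal cells of KO male, too few for the mean, had 5 UMIs. Fibroblasts came next, with 15 UMIs in 6 of 65 cells. Podocytes held 51.4% (44.6 to 58.1%) of the 220 *Wt1* UMIs, the parietal epithelium 14.5% and GL sc 11.8%.

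*Cdkn1c* encodes p57, a cell cycle inhibitor that marks mature podocytes, which do not divide. The mix libraries were alike, with 5261 CPM in WT mix and 5330 CPM in KO mix, but WT female had 1202 CPM (827 to 1688, 95% Poisson interval). In WT female 3 of the 5 podocytes had a *Cdkn1c* UMI, beside 29 of 30 in WT mix and 25 of 26 in KO mix. Without its largest podocyte, WT female had 2200 CPM from 16 UMIs. Podocytes held 84.2% (82.0 to 86.2%) of the 1258 UMIs, and lower levels were found in GL sc (79.4 ± 31.3 CPM, n = 2), fibroblasts (54.8 ± 51.9, n = 2), vascular smooth muscle (34.7 ± 23.2, n = 5) and glomerular endothelium (29.8 ± 23.4, n = 5), whose ranges overlapped.

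**Figure D1:**
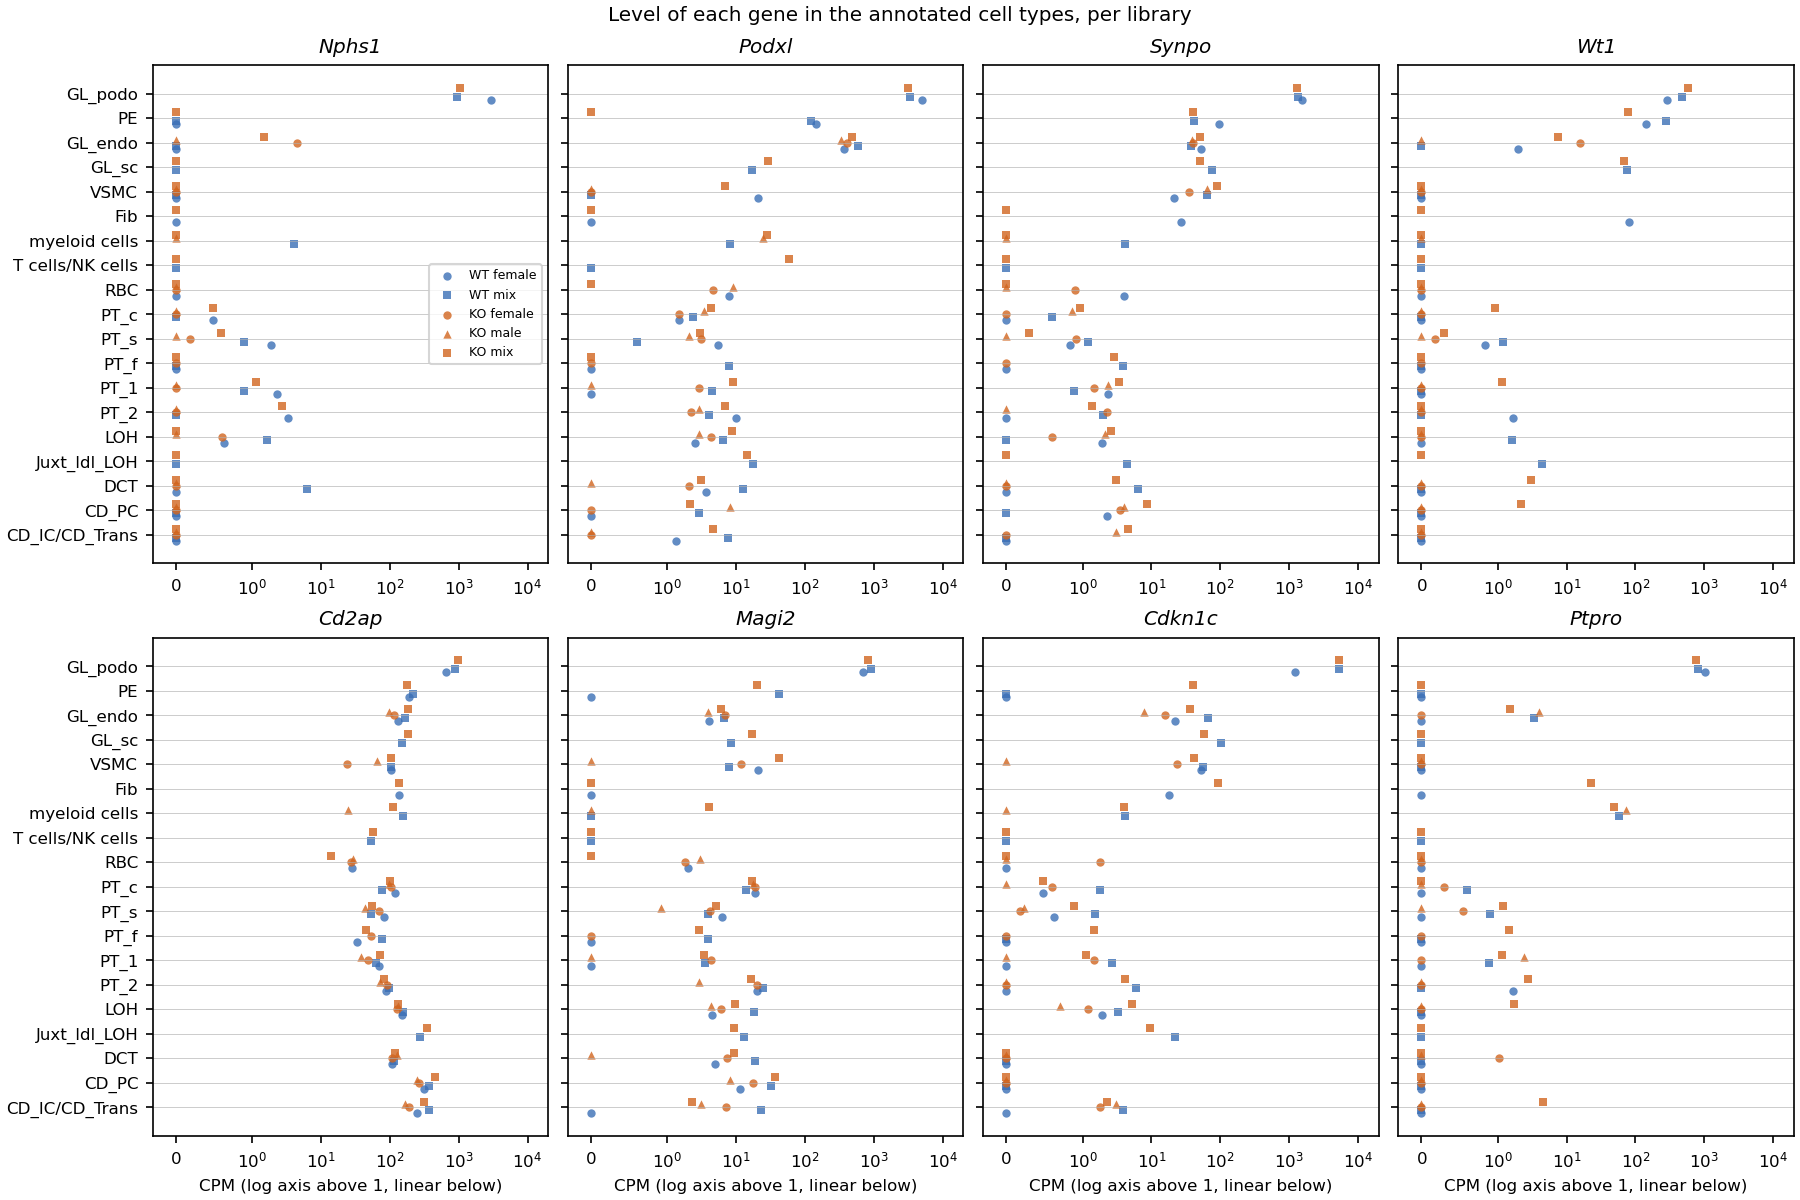
CPM of each gene (horizontal axis, logarithmic above 1) in the 19 annotated cell types (vertical axis), 1 point per library with at least 20 cells of the type, or 5 for podocytes (GL_podo) and parietal epithelium (PE). Blue marks wild type and orange knockout. In every panel podocytes are highest, while *Cd2ap* runs along at 14.1 to 460 CPM in all other types and *Podxl* has a second peak of 339 to 597 CPM in glomerular endothelium (GL_endo).

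The cell types had been named from genes of the same cells, so the order of the types is a description and carries no test. All 8 genes had their highest pooled level in podocytes, as did 11.3% of the 14103 genes with at least 30 UMIs. Over the 8 genes, the share of podocytes with a UMI ran from 68.8% (*Wt1*) to 96.9% (*Podxl*), and from 37.5% to 92.2% after thinning. In red blood cells it was 5.73% for *Cd2ap* and at most 1.26% for the other genes, and in the proximal tubule cluster PT1 (median depth 1491 UMIs) it was 10.4% for *Cd2ap* and at most 0.750% for the others.

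The genes were found together in the same cells. Of the 64 podocytes, 45 had a UMI of 7 or all 8 genes and 56 of at least 5. The median was 7, at a median depth of 2262 UMIs per cell. Glomerular endothelial cells had a median of 1 gene, as did the parietal epithelium, and 59 of the 940 endothelial cells had 3 or more. Only 1 podocyte had none of the 8 genes, a cell of KO male with 1149 UMIs. Outside the podocytes, 8 of 14133 cells had 5 or more of the genes: 4 glomerular endothelial cells, 2 PTs cells, 1 PTc cell and 1 cell of the parietal epithelium. The one with 7 genes, a glomerular endothelial cell of KO female, had 47366 UMIs and a doublet score of 0.226, against a median of 1680 UMIs in its type.

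**Figure D2:**
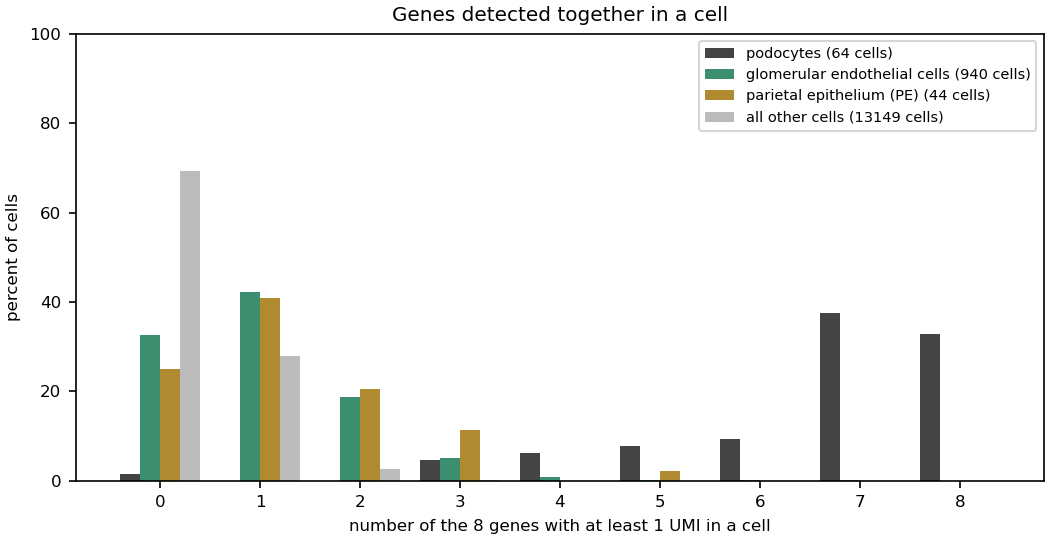
Percent of cells (vertical axis) by the number of the 8 genes with at least 1 UMI in the cell (horizontal axis), for podocytes, glomerular endothelial cells, parietal epithelium and all other cells, pooled over libraries. Podocytes peak at 7 and 8 genes and the other groups at 0 or 1, and depths differ between types.

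Whether the knockout changed these genes within podocytes could be described but not tested. At least 5 podocytes were found in 1 knockout library only, so values of WT mix and KO mix are given side by side, with intervals that cover counting error only and no replicate check. *Nphs1* had 76 UMIs in WT mix and 117 in KO mix podocytes, a log2 ratio of KO mix over WT mix of 0.16 (95% interval -0.27 to 0.60). *Podxl* had 271 and 350 UMIs, a log2 ratio of -0.09 (-0.32 to 0.14). *Cdkn1c* had 428 and 596 UMIs, a log2 ratio of 0.02 (-0.16 to 0.20), the narrowest interval of the 8. For each of these 3 genes the mix libraries differed by less than counting error.

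The intervals of the other 5 genes included 0 as well. *Synpo* had a log2 ratio of -0.03 (-0.39 to 0.34), *Ptpro* of -0.09 (-0.57 to 0.40) and *Magi2* of -0.16 (-0.62 to 0.30). *Cd2ap* had 0.17 (-0.28 to 0.61) and *Wt1* 0.28 (-0.32 to 0.89), the widest interval, from 39 and 65 UMIs. None of the 8 genes passed a 2-fold difference, beside 118 of 1662 genes (7.1%) with at least 20 UMIs in these cells. The median log2 ratio was -0.0042 over the 8 genes and 0.11 over the 1662. KO mix podocytes were deeper, with a median of 3994 UMIs per cell against 2124, and had a lower median of mitochondrial UMIs, 10.4% against 13.5%. The part of these differences in the ratios was not tested. *Podxl*, *Synpo* and *Ptpro* had positive log2 ratios of 0.03, 0.13 and 0.01 among cells with at most 25% mitochondrial UMIs, again with intervals that included 0.

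The WT female podocytes stood apart from those of WT mix by more than counting error for 3 genes. *Nphs1* was higher, at 2950 CPM (2342 to 3666) against 934 CPM (736 to 1169), and *Podxl* was higher, at 4989 CPM (4188 to 5897) against 3331 CPM (2946 to 3752). *Cdkn1c* was lower, as given above. These are 5 cells of another run, and for each of these 3 genes the wild-type libraries lay further apart than WT mix and KO mix. Without the largest podocyte, the level in WT female was 3162 CPM for *Nphs1* and 9073 CPM for *Podxl*. The knockout libraries of run 2 held 3 podocytes, with 4 *Nphs1* UMIs in KO female and 0 in KO male, and 13 and 3 *Podxl* UMIs.

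**Figure D3:**
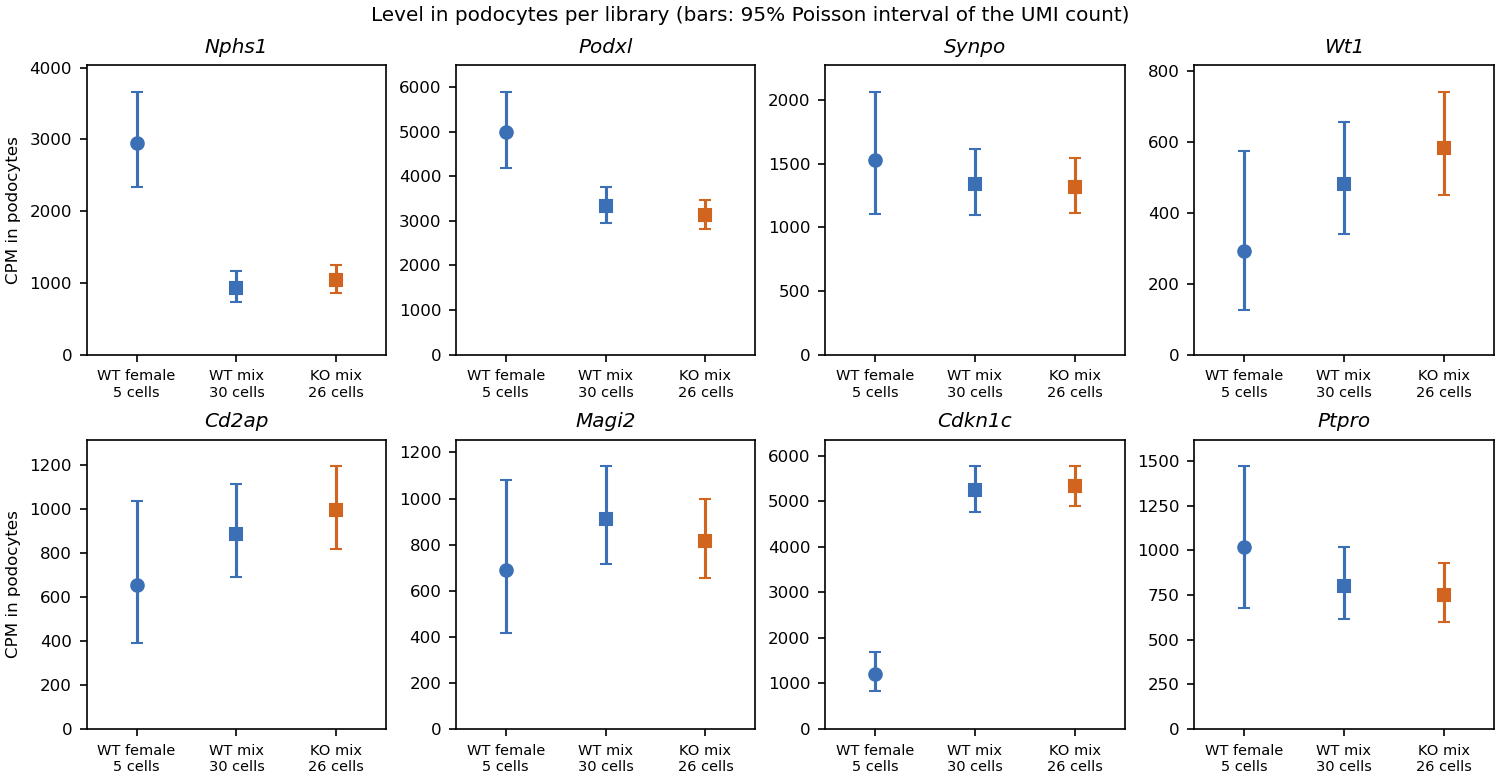
CPM in podocytes (vertical axis, from 0, a scale for each gene) in the 3 libraries with at least 5 podocytes (horizontal axis). Bars are 95% Poisson intervals of the UMI count. WT mix and KO mix lie within each other's intervals for all 8 genes, while WT female lies above both for *Nphs1* and *Podxl* and below both for *Cdkn1c*.

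In all cells summed per library, no gene of the 8 passed the test between genotypes. *Nphs1* had 7.30 CPM in WT female, 8.43 CPM in WT mix, 0.502 CPM in KO female, 0 in KO male (0 UMIs, which allows 0.306 CPM) and 10.4 CPM in KO mix. KO female and KO male were low and KO mix was above both wild-type libraries, so the groups overlapped. *Cdkn1c* had 4.46 CPM in WT female, 52.1 CPM in WT mix, 1.25 CPM in KO female, 0.613 CPM in KO male and 55.5 CPM in KO mix, high in both mix libraries and low in the others. *Podxl* had 28.6 CPM in WT female, 67.8 CPM in WT mix, 14.7 CPM in KO female, 11.5 CPM in KO male and 61.7 CPM in KO mix. In each of these genes KO female and KO male were the lowest libraries and the mix libraries the highest. The groups overlapped for all 8 genes, where 4.42% of 14103 genes had every knockout library below both of wild type and 1.26% had every one above.

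The same order held for *Synpo* (2.13 to 18.8 CPM), *Wt1* (0.690 to 7.73 CPM) and *Ptpro* (0.564 to 9.24 CPM), each with the lowest value in KO female and the highest in KO mix. For *Magi2* (3.68 to 17.6 CPM) and *Cd2ap* (81.1 to 126 CPM) the lowest library was KO male and the highest KO mix. By the quasi-likelihood test of edgeR the log2 fold changes of knockout over wild type ran from -1.10 (*Nphs1*, SE 1.54) to -0.13 (*Cd2ap*, SE 0.24). All had an adjusted p of 1.0, and 0 of 8 passed the threshold of 0.05, beside 0 of 13654 genes (0%). Over all genes 12 had an unadjusted p under 0.05, and DESeq2 gave the same counts, 0 and 12. The median log2 fold change was -0.56 over the 8 genes and 0.0079 over all genes tested. The intervals were wide: that of *Nphs1* ran from -4.96 to 2.77, that of *Cdkn1c* from -5.23 to 4.12, and that of *Cd2ap* from -0.73 to 0.48. Single libraries moved these values. Without KO mix the log2 fold change was -4.63 for *Nphs1*, -4.75 for *Cdkn1c* and -1.77 for *Podxl*, and without WT mix it was 2.09 for *Cdkn1c* and 0.06 for *Podxl*. With the run as a block, where both genotypes are in each run, the log2 fold change of *Podxl* was -0.63 (SE 0.23, unadjusted p = 0.038, edgeR adjusted p = 1.0). The other 7 lay between -1.97 and -0.11. Over all genes 114 of 13654 had an unadjusted p under 0.05 with this block. The lowest adjusted p over all alternative fits of all cells was 0.94.

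These sums hold the podocytes of each library, and in a sum fewer cells of a type and less RNA per cell cannot be told apart. Podocytes were 0.894% of the cells of WT mix, 0.729% of KO mix, 0.197% of WT female, 0.111% of KO male and 0.0340% of KO female. Wild type had a mean of 0.546 ± 0.493% (SD, n = 2) and knockout of 0.291 ± 0.381% (SD, n = 3), with p = 0.40 in the exact permutation test (two-sided, lowest p possible 0.20). In the edgeR test of cell numbers, which counted the KO male podocytes as annotated, the log2 fold change was -0.85 (SE 1.29, interval -4.18 to 2.47, adjusted p = 0.89). Without KO mix it was -2.97 (adjusted p = 0.25), and without WT mix it was 0.61. No difference in podocyte number was detectable with this number of libraries (n = 2 and n = 3).

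Leaving out the podocytes lowered *Nphs1* in all cells to 1.08 CPM in WT female, 0.717 CPM in WT mix, 0.251 CPM in KO female, 0 in KO male and 0.594 CPM in KO mix. All 3 knockout libraries then lay below both wild-type libraries, as for 4.60% of the 14074 genes with at least 30 UMIs, but these are 32 UMIs in all. The groups still overlapped for the other 7 genes. For *Cdkn1c* the log2 fold change without podocytes was -1.09 (SE 1.03), for *Wt1* -0.84 (SE 0.68) and for *Podxl* -0.55 (SE 0.54), each with an adjusted p of 1.0 in edgeR, and *Nphs1* no longer passed the filter on low counts. For *Podxl* the level without podocytes still ran from 11.2 CPM in KO male to 40.6 CPM in WT mix. Glomerular endothelial cells, its other source, made up 4.35% of KO female cells, 5.24% of KO male, 5.75% of WT female, 8.23% of WT mix and 8.30% of KO mix.

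**Figure D4:**
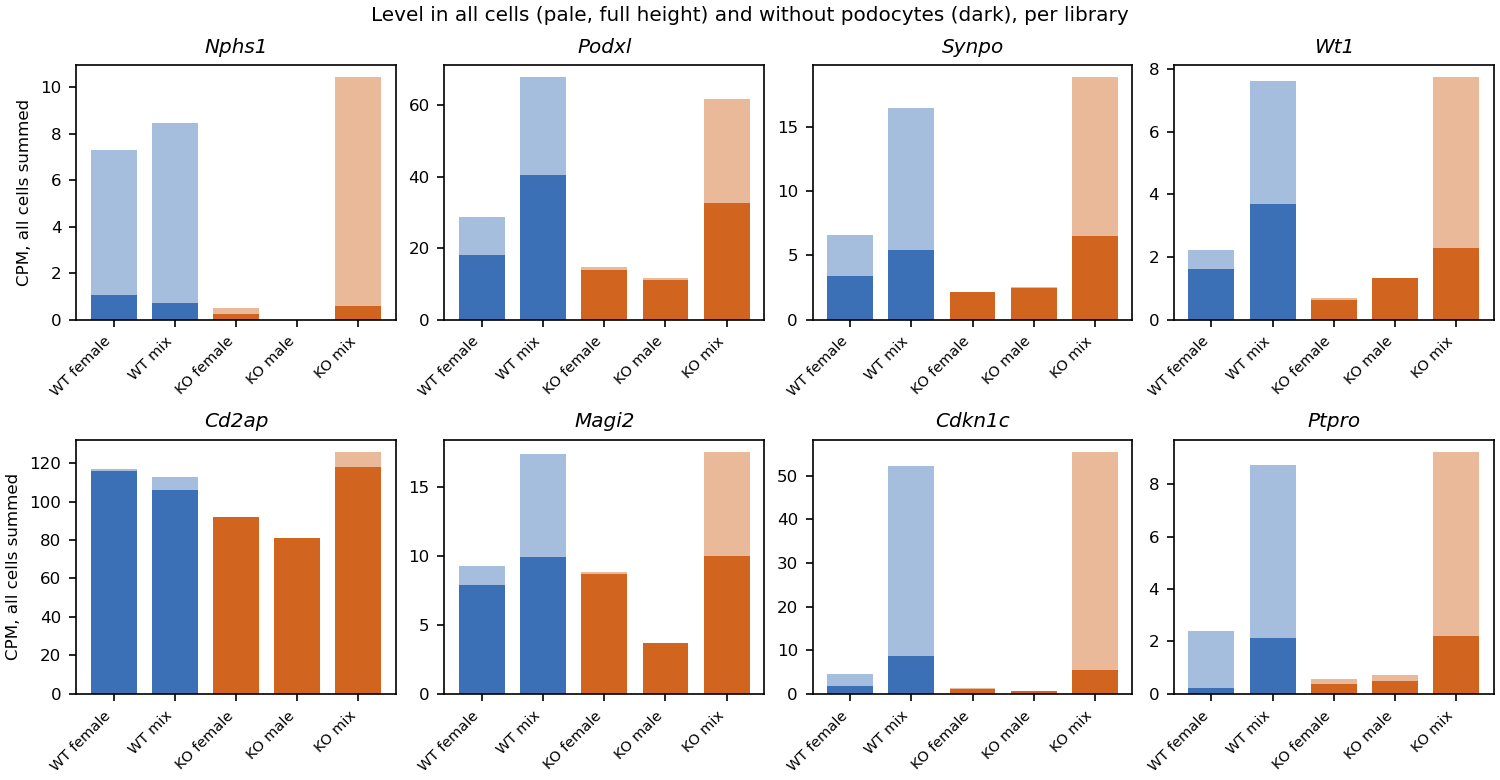
CPM of each gene in all cells summed (vertical axis, from 0) for the 5 libraries (horizontal axis), with podocytes (pale bar, full height) and without them (dark bar). Blue marks wild type and orange knockout. In both mix libraries *Nphs1*, *Cdkn1c*, *Ptpro* and *Synpo* lose most of their level when podocytes are left out and *Cd2ap* little. *Wt1* falls from 7.62 to 3.69 CPM in WT mix and from 7.73 to 2.29 CPM in KO mix. In KO male *Cdkn1c* stays at 0.613 CPM.

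In glomerular endothelial cells, with 94 to 296 cells per library, 4 of the 8 genes passed the filter on low counts and were tested. *Podxl* had 365 CPM in WT female, 597 CPM in WT mix, 407 CPM in KO female, 339 CPM in KO male and 482 CPM in KO mix, a log2 fold change of -0.12 (SE 0.39, edgeR adjusted p = 1.0). *Cdkn1c* had 21.9 CPM in WT female, 67.3 CPM in WT mix, 15.9 CPM in KO female, 7.87 CPM in KO male and 36.1 CPM in KO mix, a log2 fold change of -0.96 (SE 0.60, edgeR adjusted p = 1.0, unadjusted p = 0.15). KO mix lay between the wild-type libraries, so the groups overlapped, and these values rest on 2 to 40 UMIs per library. Knockout was lower in the female pair (7 against 11 UMIs) and in the mix pair (24 against 40 UMIs). The share of all genes that did so was not counted. The log2 fold change was -0.81 with the run as a block (unadjusted p = 0.038, edgeR adjusted p = 1.0) and -0.76 when blocked by sex composition (unadjusted p = 0.036, edgeR adjusted p = 0.88). Over all genes 232 of 7043 had an unadjusted p under 0.05 with the run block and 387 of 7043 with the sex block. Among 8195 genes with at least 30 UMIs the groups did not overlap, with knockout lower, for 7.03% and, with knockout higher, for 3.65%. *Synpo* (37.0 to 51.8 CPM, log2 fold change 0.06, SE 0.40) and *Cd2ap* (98.4 to 182 CPM, -0.10, SE 0.37) differed by less than their spread. None of the 4 passed, beside 0 of 7043 genes (0%), with 21 genes at an unadjusted p under 0.05. DESeq2 called 0 as well. Without WT mix the *Cdkn1c* value was -0.06, without KO mix -1.65 and without WT female -1.44, with a lowest adjusted p of 0.82.

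Outside the glomerulus the tests came to 15, over 9 cell types. *Cd2ap* was tested in all 9, *Magi2* in 5 and *Podxl* in PTs. Log2 fold changes ran from -0.58 (*Magi2* in PT2) to 0.10 (*Magi2* in principal cells), the lowest unadjusted p was 0.33 and none passed, beside 0% of the genes in each of these types. In principal cells *Cd2ap* had 313 CPM in WT female, 365 CPM in WT mix, 263 CPM in KO female, 252 CPM in KO male and 460 CPM in KO mix. The lowest and the highest library were both knockouts there. *Nphs1*, *Wt1* and *Ptpro* did not pass the filter on low counts in any type tested, and podocytes, parietal epithelium, GL sc and fibroblasts had too few libraries.

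**Figure D5:**
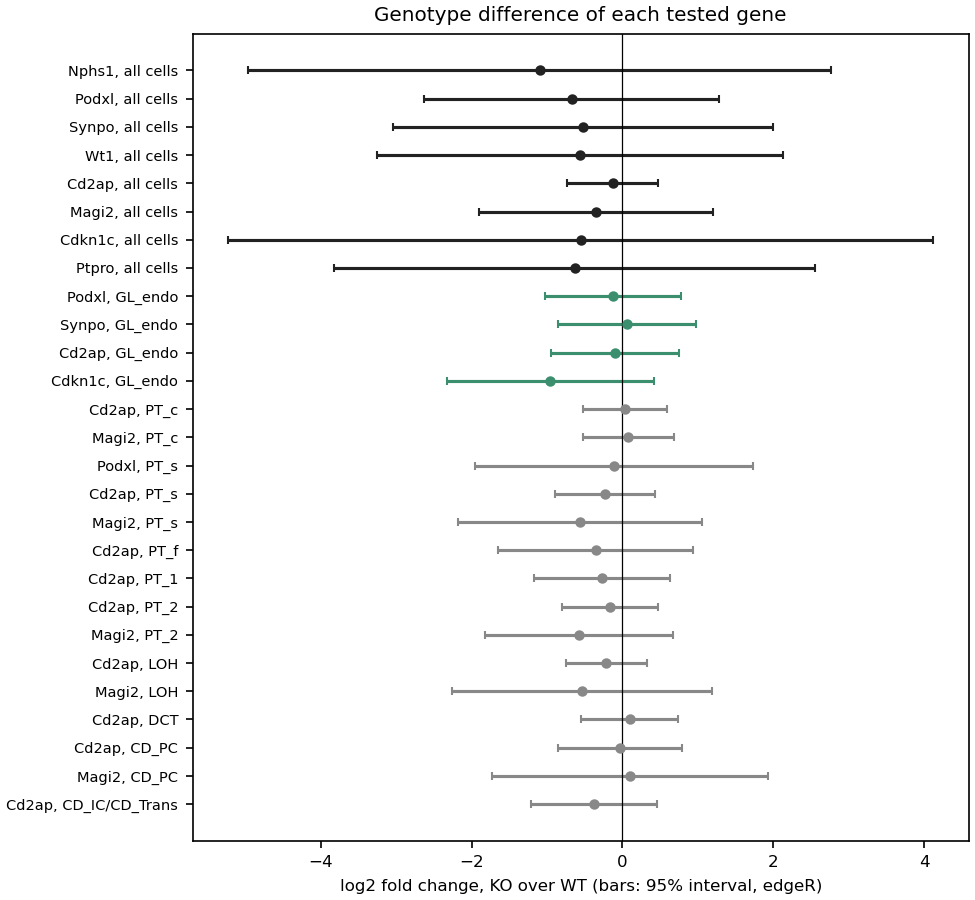
Log2 fold change of knockout over wild type (horizontal axis) with its 95% interval from edgeR, for each gene and cell type that could be tested (vertical axis). Black is all cells, green glomerular endothelium and grey the other types. All 27 intervals cross 0, and those of *Nphs1* and *Cdkn1c* in all cells are the widest.

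The same measures were taken for 95 other genes of the podocyte and the filtration barrier. Of these, 84 had a UMI in a podocyte and 58 had their highest pooled level there. By list these were 12 of 20 slit diaphragm genes, 13 of 22 of the foot process cytoskeleton, 8 of 12 in a list of transcription factors, 9 of 17 of adhesion and basement membrane and 16 of 24 in a list of secreted and surface proteins. The lists are not pure: that of transcription factors also holds *Efnb1*, a membrane ligand, and that of secreted and surface proteins holds *Nupr1*, *Rab3b* and *Pard3b*, which act inside the cell. Among those with the highest podocyte level were *Nupr1* (a stress-response factor; 2703 CPM, 95% Poisson interval 2492 to 2926), *Sdc4* (a heparan sulfate proteoglycan; 2320 CPM), *Clic3* (a chloride channel family protein; 1783 CPM) and *Clic5* (of the same family, bound to the ezrin complex; 1600 CPM). Podocytes held 90.3% of the *Clic3* UMIs, but 22.6% of those of *Nupr1* and 2.91% of those of *Sdc4*.

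In all cells 90 of these genes were tested and none passed. Log2 fold changes were above 0 for 20 of the 90, with a median of -0.18, beside 7045 of 13654 over all genes, with a median of 0.0079. The edgeR test gave 0 of the 90 at an unadjusted p under 0.05, and DESeq2 also called 0. *Clic3* had -0.47 (SE 1.53), while *Clic5*, of which podocytes hold 12.2% of the UMIs, had -0.06 (SE 0.21). The 12 genes of the list with the transcription factors, *Efnb1* among them, lay below 0, with a median of -0.46 and none past the threshold. Genes that share podocytes as a source share their number as well, so these values are not independent. In glomerular endothelium 51 of the genes were tested, none passed and the median was -0.16.

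Over the 19 cell types, the genes most like *Nphs1* in pooled log2(CPM + 1) were *Ddn* (Pearson r = 0.98), *Myom2* (0.97) and *Tmem54* (0.96). *Synpo* and *Cdkn1c* were near to each other (0.95), and both had *Nes*, an intermediate filament gene, among their nearest (0.96 and 0.93). Among the nearest to *Ptpro* were *Tlr7* (0.94) and *Hs3st3a1* (0.89), and those to *Wt1* were *Mmp23* (0.93), *Arhgap28* (0.89) and *Galnt10* (0.87). For *Podxl* they were *Nebl* (0.88), *Sema3g* (0.88) and *Sh3glb1* (0.87). *Cd2ap* was nearest to the broadly expressed genes *Itm2b* (0.94), *Rad21* (0.91) and *Yif1b* (0.91), and *Magi2* to *Dock5* (0.88), *Parva* (0.86) and *Nomo1* (0.85). *Foxd2os* (0.95) was the second nearest to *Synpo* and *C1qtnf1* (0.92) the third nearest to *Cdkn1c*. Each r is over 19 types that share libraries and differ in depth, and all of the genes named had their highest level in podocytes. Among the 8 genes themselves r ran from 0.44 (*Wt1* and *Ptpro*) to 0.95 (*Synpo* and *Cdkn1c*).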

How the data were processed

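Single-cell suspensions of perfused kidneys (collagenase P and trypsin) were sequenced as 10x 3′ v3 libraries. The deposited matrix holds raw UMI counts, made by the authors with Cell Ranger 4.0.0 on mm10. The authors kept cells with at least 1000 UMIs and at most 50% mitochondrial UMIs, scored doublets with Scrublet (no cell was removed for it here) and named the cell types with Seurat 3.2.2.9001. Libraries were grouped by the genotype in their labels. The 8 genes, the lists of other genes and the markers were chosen with earlier results of these data known.

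For each type, UMIs were added up within a library (at least 20 cells per library, 5 for podocytes and parietal epithelium) and given as CPM. Wild type (n = 2) and knockout (n = 3) were compared with edgeR 4.0.16 (quasi-likelihood test, two-sided, R 4.3.3, TMM, filterByExpr, threshold 0.05 on the Benjamini-Hochberg adjusted p over all genes). The test was also applied to simulated counts, which had no effect of run or sex composition, unlike what the libraries may have. DESeq2 1.42.0 was an alternative. Scripts used Python 3.11.15, numpy 2.4.6, scipy 1.17.1 and pandas 2.3.3. Intervals (95%, exact Poisson or binomial) and the floor of 3 counts cover counting error only. Further alternatives were other filters on genes and cells, blocks of run or sex composition, and leaving out each library. Fits without podocytes, further fits without 1 library and levels without the largest podocyte were added after the data were seen. Besides the 8 genes, the rule for named genes took the 6 listed genes highest in podocytes and the 3 genes most like each of the 8; some of these are not reported here.

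The labels name a female library of each genotype, and the study names a mix library of each. It gives no proportions of the sexes in a mix. Deviations of the female pair and of the mix pair from the group means correlated over 13229 genes (r = 0.75 and 0.74), and KO male had no partner. The female pair was of run 2 and the mix pair of run 3, so sex composition and run cannot be told apart in these pairs. The deviations of the 2 wild-type libraries from their mean are equal and opposite, so the 2 values of r are not independent.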

Additional observations from a re-analysis of the deposited data

How the results depend on the processing

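All 8 genes were highest in podocytes under every alternative run, and 0 of the genes passed the test in all cells, in glomerular endothelium or in the other types under any of them. Over all genes in all cells, the run block and the sex block each called 0 of 13654. In glomerular endothelium the run block called 1 of 7043 genes and the sex block 8 of 7043. Without a filter on low counts 11 of 15014 were called there. Among the other types the run block called most in the proximal tubule cluster PTf, 11 of 2629. No test in podocytes could be run, so its alternatives were not run either. Leaving out 1 library moved the log2 fold change of podocyte number between -2.97 and 0.61, the latter, without WT mix, a reversed direction. With the run or the sex composition as a replicate block it was -0.63 and -0.65, and both blocks left 0 genes of the 8 called.

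The share of a gene's UMIs held by podocytes was 40.6% for *Podxl* among cells with a doublet score under 0.25, and 4.02% for *Cd2ap*, 38.2% for *Magi2* and 86.5% for *Cdkn1c* among cells with at most 25% mitochondrial UMIs. Leaving out 1 library, it ran from 30.6 to 40.3% for *Podxl*, 49.5 to 60.2% for *Synpo*, 37.5 to 55.0% for *Wt1*, 1.88 to 4.10% for *Cd2ap*, 20.3 to 34.3% for *Magi2*, 77.6 to 85.5% for *Cdkn1c*, 86.6 to 91.6% for *Nphs1* and 72.6 to 76.5% for *Ptpro*.

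Log2 fold changes of single genes in all cells, leaving out 1 library, ran from -4.63 to -0.54 for *Nphs1*, -1.77 to 0.057 for *Podxl*, -2.19 to 0.26 for *Synpo*, -2.19 to 0.55 for *Wt1*, -0.31 to -0.041 for *Cd2ap*, -0.98 to 0.15 for *Magi2*, -4.75 to 2.09 for *Cdkn1c* and -3.01 to 0.56 for *Ptpro*. The lowest were without KO mix and those above 0 without WT mix, and without KO male *Magi2* (0.013) and *Cdkn1c* (0.0062) were above 0 too. In glomerular endothelium they ran from -0.33 to 0.16 for *Podxl*, -0.25 to 0.46 for *Synpo*, -0.34 to -0.0030 for *Cd2ap* and -1.65 to -0.059 for *Cdkn1c*. The sex block gave 0.021 for *Magi2*, and the run block without podocytes 0.40 for *Ptpro*. The cause was not tested. The number of libraries (2 and 3) and the 3 podocytes of KO female and KO male limit these results.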
